A study of Mus musculus with 6 samples.

Results

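Killer cell lectin-like receptors are C-type lectins on the surface of natural killer (NK) cells and of some T cells. Their genes are named Klr. Many recognise MHC class I molecules or related stress ligands. Inhibitory members recruit phosphatases through their cytoplasmic tails, whereas activating members signal through adaptor proteins such as DAP10 and DAP12. Invariant natural killer T (iNKT) cells are T cells with a semi-invariant receptor for lipids, and their development needs the transcription factor PLZF. The interferon-gamma-producing NKT1 subset is known for displaying NK receptors, among them NK1.1.

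The set described here holds 10 mouse genes of this family, taken from a list of names and measured by array rows annotated with that gene alone. The list was chosen with earlier results of these data known. These were 3 Ly49 genes (Klra5, Klra6 and Klra9), the NKR-P1 gene Klrb1c, 5 genes of the NKG2 and CD94 group (Klrc1, Klrc2, Klrd1, Klre1 and Klrk1), and Klrg1. All 10 were found among 22180 genes with a row of their own, each with a single row. A further 13 Klr genes had their own row, and 4 Klr rows annotated with several symbols were left out.

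The arrays measured iNKT cells of wild-type mice (WT) and of PLZF_ON mice, in which PLZF is made in a constitutively acetylated form, with 3 arrays per group. No source used here gives the age, sex or strain of the mice, the organ, how the cells were isolated, or the promoter behind the PLZF_ON allele. The study names replicates 1 and 2 of each group as those it analysed, so 4 arrays make the first comparison and all 6 the second. Values are log2 expression values as deposited.

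PLZF_ON replicate 3 stood apart from the other arrays, with correlations over all rows of 0.895 to 0.898 against 0.957 to 0.973 between the rest. Its values also had a narrower spread (SD 1.79 against 1.97 to 2.01) and a higher median (5.01 against 4.88 to 4.92). It also carried higher levels of the myeloid genes S100a8 (7.29, against 2.61 to 3.09 on the other arrays) and Lyz2 (6.58 against 3.96 to 4.48), and of the CD8 chain gene Cd8a (6.55 against 4.39 to 4.73). The T cell genes Cd3d, Cd3e, Cd3g and Thy1 lay between 10.16 and 11.49 on all 6 arrays, and each was lowest on PLZF_ON replicate 3. There Cd3d was at 10.16 against 10.77 to 11.27 on the other arrays, and Cd3e at 10.23 against 10.93 to 11.49. Zbtb16, the gene of PLZF itself, was at 9.96, 10.19 and 9.82 in WT and at 10.48, 10.68 and 9.54 in PLZF_ON, and its RNA level says nothing of acetylation. The array number limits the precision. Whether each array stands for its own animal or pool is not in the labels, so the p-values below rest on a spread between samples that may be technical.

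The sequences around the gene starts are shown for the 3 Ly49 members, since these genes are near-copies whose signals may mix, and for Klrk1, whose window holds a RUNX motif. Each window runs from 250 bases before to 50 bases after the start of the gene as RefSeq places it on GRCm38.p6, 5′ to 3′ on the strand of the gene. In the Ly49 windows capitals mark the stretches of at least 20 bases that all 3 share, and in the Klrk1 window they mark the motif. Klra5 (chr6:129913175-129913474), Klra6 (chr6:130026905-130027204), Klra9 (chr6:130193063-130193362) and Klrk1 (chr6:129623815-129624114) all lie on the minus strand of chromosome 6.
Klra5: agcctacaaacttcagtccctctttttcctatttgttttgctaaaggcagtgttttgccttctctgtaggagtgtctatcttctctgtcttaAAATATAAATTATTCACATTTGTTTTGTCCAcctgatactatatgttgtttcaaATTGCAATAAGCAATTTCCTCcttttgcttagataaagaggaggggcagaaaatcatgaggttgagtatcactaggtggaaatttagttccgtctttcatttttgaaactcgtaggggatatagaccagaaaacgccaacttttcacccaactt
Klra6: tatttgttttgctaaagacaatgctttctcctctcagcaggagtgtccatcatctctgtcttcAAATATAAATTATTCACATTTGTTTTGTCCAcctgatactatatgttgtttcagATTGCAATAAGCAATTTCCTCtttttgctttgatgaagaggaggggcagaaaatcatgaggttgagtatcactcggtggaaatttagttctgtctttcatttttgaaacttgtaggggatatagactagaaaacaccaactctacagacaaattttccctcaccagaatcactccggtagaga
Klra9: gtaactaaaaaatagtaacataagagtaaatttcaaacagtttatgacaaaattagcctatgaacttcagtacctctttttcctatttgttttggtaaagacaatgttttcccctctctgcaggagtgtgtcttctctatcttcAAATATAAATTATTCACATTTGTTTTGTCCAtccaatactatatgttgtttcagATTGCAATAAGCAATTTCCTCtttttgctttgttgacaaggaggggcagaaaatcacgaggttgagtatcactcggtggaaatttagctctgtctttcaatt
Klrk1: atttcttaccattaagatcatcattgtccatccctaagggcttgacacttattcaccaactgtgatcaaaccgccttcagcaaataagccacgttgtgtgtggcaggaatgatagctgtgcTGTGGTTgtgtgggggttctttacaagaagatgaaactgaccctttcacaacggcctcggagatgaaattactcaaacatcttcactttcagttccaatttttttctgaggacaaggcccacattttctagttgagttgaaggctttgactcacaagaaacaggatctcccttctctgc
The 2 shared stretches are 31 and 21 bases long. Local alignment gave 90.8% identity over 271 columns between Klra5 and Klra6, 88.3% over 248 between Klra5 and Klra9, and 91.8% over 219 between Klra6 and Klra9. The Klra9 window was 95.4% identical over 284 columns to that of Klra3, a Ly49 gene without a row of its own. These windows lie mostly before the gene start, so their identity does not show how the array rows match the RNA. Part of a Ly49 signal may come from a neighbour, which was not tested.

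Of the 10 receptors, 9 were lower in PLZF_ON than in WT over the 4 arrays, with a median log2 difference of -2.19, while 50.7% of all 23521 rows were lower and their median difference was 0.00. Klra9 was 13.4-fold lower, Klra5 10.4-fold, and Klrb1c and the members of the NKG2 and CD94 group between 3.85-fold and 4.75-fold. Klra6 and Klrg1 were under the background limit on all 4 arrays, so no fold is given for them, although Klra6 counts among the 9. For 9 receptors both PLZF_ON arrays lay below both WT arrays, which holds for 19.3% of all rows. Log2 differences of -1 or below were seen for 8 receptors, against 0.633% of all rows, and of -2 or below for 7, against 0.102%. Since the receptors were chosen with earlier results of these data known, the shares are a description and no test of the set. Without PLZF_ON replicate 2 the receptor counts were 6 and 1, and the shares of all rows in that fit are not given here.

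By limma with Benjamini-Hochberg adjustment over all rows, 0 of the 10 receptors passed an adjusted p of 0.05 over the 4 arrays, as did 0.170% of all rows. The lowest adjusted p among them was 0.101, for Klra5. An unadjusted p under 0.05 was reached by 7 receptors, all lower, against 4.53% of all rows that were lower at that level. With values floored at the background limit 1 receptor reached it over 4 arrays and 5 over 6, and the shares of all rows with that floor are not given here. Over 6 arrays 9 receptors were lower at an unadjusted p under 0.05 (3.32% of all rows), and again 0 passed after adjustment (0.0935% of all rows). All 3 PLZF_ON arrays lay below all 3 WT arrays for 9 receptors, which holds for 6.22% of rows, and 9 had a log2 difference of -1 or below (0.833% of rows). The 6-array values include PLZF_ON replicate 3 with its narrower spread, whose part was not tested. After quantile normalization the median receptor difference over 6 arrays was -1.88, against -2.02 as deposited. Each group has 2 arrays in the first comparison and 3 in the second. In bulk RNA, fewer cells that carry a receptor and less RNA per cell cannot be told apart.

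**Figure D1:**
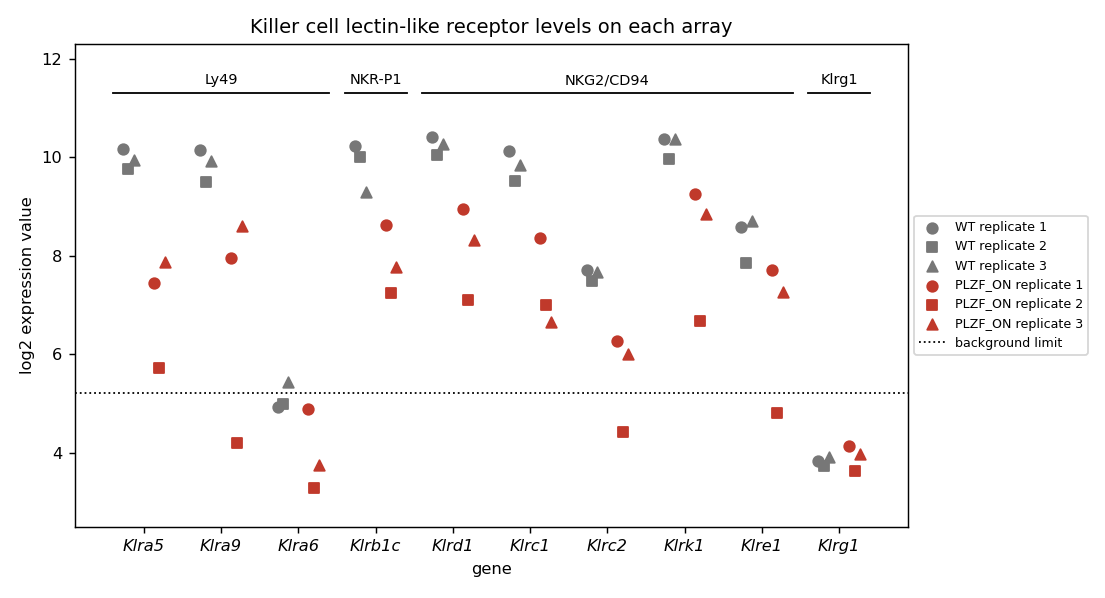
Log2 expression value of the 10 receptors on each array, with WT arrays in grey, PLZF_ON arrays in red, marker shape for the replicate number and a dotted line at the background limit. For 9 receptors the 3 PLZF_ON points lie below the 3 WT points, and those of Klrg1 overlap.

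The background limit used here is the 95th percentile of the mean levels of 1394 olfactory and vomeronasal receptor genes, which was 5.21. The 10 receptors differed in how they stood to it. Klra5, Klrb1c, Klrc1, Klrd1 and Klrk1, making 5, lay above it on all 6 arrays. Klra9, Klrc2 and Klre1 lay above it on 5 arrays, the exception being PLZF_ON replicate 2. Klra6 lay above it on 1 array and Klrg1 on none.

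Many of the Ly49 genes encode receptors for MHC class I molecules. Among the Ly49 members, Klra5 (Ly49E) had log2 levels of 10.17, 9.77 and 9.94 on the 3 WT arrays, and of 7.45, 5.73 and 7.87 on the 3 PLZF_ON arrays, listed here and below by replicate number. The groups did not overlap, and PLZF_ON replicate 2 was the lowest array. The difference over 4 arrays was -3.38 (SE 0.52, limma adjusted p = 0.101). Over 6 arrays it was -2.94 (SE 0.50, limma adjusted p = 0.128), and without PLZF_ON replicate 2 the 4-array difference was -2.52 (limma adjusted p = 0.136).

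Klra9 (Ly49I) was at 10.14, 9.49 and 9.92 in WT and at 7.95, 4.20 and 8.61 in PLZF_ON. All PLZF_ON arrays were lower than all WT arrays, but replicate 2 was 3.75 below replicate 1 on the log2 scale, a gap as wide as the difference between the groups. That difference was -3.75 over 4 arrays (SE 1.10, limma adjusted p = 0.345) and -1.87 without PLZF_ON replicate 2. Over 6 arrays it was -2.93 (SE 1.004, limma adjusted p = 0.681), close to that of Klra5. PLZF_ON replicate 2 lay under the background limit for Klra9, and with that limit as a floor the 4-array difference was -3.24.

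Klra6 (Ly49F) was at 4.93, 5.0 and 5.44 in WT and at 4.90, 3.28 and 3.75 in PLZF_ON. PLZF_ON replicate 1 was close to WT replicate 1, and the other PLZF_ON arrays were lower. Its 4-array difference was -0.87 (SE 0.48, limma adjusted p = 0.684), and -0.06 without PLZF_ON replicate 2. Its window above shares the capital stretches with Klra5 and Klra9.

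Klrb1c encodes NKR-P1C, the activating receptor known as NK1.1 that is widely used to mark NK cells and mature NKT cells. Its log2 level was 10.24, 10.02 and 9.30 in WT and 8.63, 7.25 and 7.78 in PLZF_ON. The lowest WT array exceeded the highest PLZF_ON array by less than the WT arrays spread among themselves (0.94). The difference was -2.19 over 4 arrays (SE 0.42, limma adjusted p = 0.157) and -1.96 over 6 (SE 0.38, limma adjusted p = 0.193). Without PLZF_ON replicate 2 the 4-array value was -1.498.

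Klrd1 encodes CD94, the partner that NKG2 chains need to reach the cell surface as receptors for Qa-1. It was at 10.41, 10.04 and 10.27 in WT and at 8.96, 7.10 and 8.32 in PLZF_ON, with no overlap. Over 4 arrays it differed by -2.20 (SE 0.56, limma adjusted p = 0.266), or 4.58-fold lower, and by -1.27 without PLZF_ON replicate 2 (limma adjusted p = 0.294).

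Klrc1 encodes NKG2A, the inhibitory partner of CD94. It was at 10.13, 9.53 and 9.84 in WT and at 8.37, 7.003 and 6.65 in PLZF_ON. Here replicate 3, not replicate 2, was the lowest PLZF_ON array, unlike in the 9 other receptors. The difference was -2.14 over 4 arrays (SE 0.45, limma adjusted p = 0.183) and -2.49 over 6 (SE 0.42, limma adjusted p = 0.128). Without PLZF_ON replicate 2 the 4-array value was -1.46 (limma adjusted p = 0.342).

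Klrc2 encodes NKG2C, the activating partner of CD94. It was at 7.71, 7.49 and 7.68 in WT, a range of 0.22, and at 6.27, 4.43 and 6.0 in PLZF_ON. The WT arrays were thus tightly grouped and the PLZF_ON arrays spread widely below them. Its 4-array difference was -2.25 (SE 0.54, limma adjusted p = 0.245), and -1.33 without PLZF_ON replicate 2. The inhibitory chain Klrc1 and the activating chain Klrc2 were lower by 4.42-fold and 4.75-fold, and the difference between them was not tested.

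Klrk1 encodes NKG2D, an activating receptor for stress-induced ligands that signals through DAP10. It was at 10.37, 9.96 and 10.38 in WT and at 9.26, 6.69 and 8.85 in PLZF_ON. PLZF_ON replicates 1 and 3 lay 0.98 and 1.39 below the WT mean and replicate 2 lay 3.55 below it. The difference was -2.19 over 4 arrays (SE 0.76, limma adjusted p = 0.432) and -0.91 without PLZF_ON replicate 2 (limma adjusted p = 0.463).

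Klre1 encodes an NK lectin without signalling motifs of its own that pairs with other Klr chains. It was at 8.58, 7.86 and 8.72 in WT and at 7.72, 4.82 and 7.27 in PLZF_ON. The gap between WT replicate 2 and PLZF_ON replicate 1 was small beside the WT range of 0.86. Its difference was -1.95 over 4 arrays (SE 0.87, limma adjusted p = 0.582) and -0.49 without PLZF_ON replicate 2 (limma adjusted p = 0.814).

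Klrg1 encodes an inhibitory receptor for cadherins, found on effector T cells and NK cells. It was at 3.84, 3.73 and 3.93 in WT and at 4.15, 3.63 and 3.98 in PLZF_ON, so the groups overlapped and every array lay under the background limit. The 4-array difference was 0.10 (SE 0.20, limma adjusted p = 0.940). At such levels a lower value in PLZF_ON could not be told from background.

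**Figure D2:**
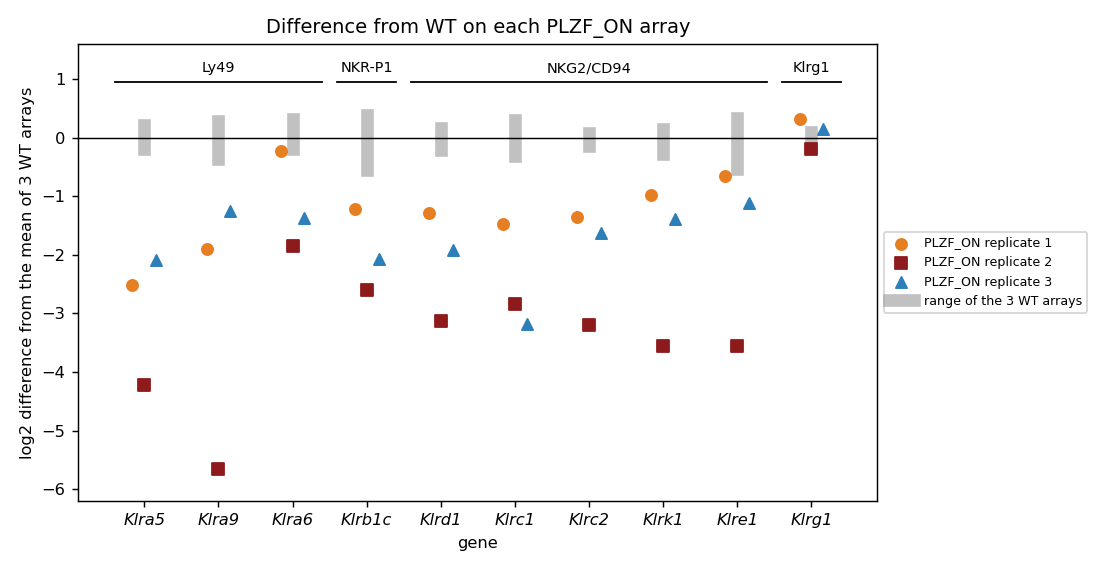
Log2 difference of each PLZF_ON array from the mean of the 3 WT arrays, 1 column per receptor and 1 marker per replicate, with grey bars for the range of the WT arrays. Replicate 2 is the lowest for all receptors but Klrc1, for which it is replicate 3, and only for Klrg1 do PLZF_ON points lie above 0.

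The PLZF_ON arrays differed among themselves as well as from WT. PLZF_ON replicate 2 was the lowest of the 6 arrays for 9 of the 10 receptors. The median deviation of the receptors from the WT mean was -1.25 on PLZF_ON replicate 1, -3.16 on replicate 2 and -1.51 on replicate 3. Replicates 1 and 3 each lay below all WT arrays for 9 receptors, and replicate 2 for all 10. Of all rows, 27.5% lay below all WT arrays on replicate 1, 27.8% on replicate 2 and 31.0% on replicate 3. Without replicate 2 the median 4-array difference was -1.30 with 9 of 10 lower, and without replicate 1 it was -3.14 with all 10 lower. In that last fit 6 receptors passed over all rows (Klra5, Klra9, Klrb1c, Klrc2, Klrd1 and Klrk1, limma adjusted p from 0.0329 to 0.0393), as did 0.136% of all rows, with the lone PLZF_ON array assumed to vary like WT.

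Markers of NK cells and type 1 innate lymphoid cells were set beside these values, since such cells carry the same receptors. Their part in the receptor differences was not tested. Ncr1, which encodes the NK receptor NKp46, was at 5.80, 6.68 and 7.48 in WT and at 7.65, 4.80 and 8.25 in PLZF_ON, and its 4-array difference was -0.02 (SE 0.86). Tyrobp, encoding the adaptor DAP12, was at 6.98, 8.21 and 9.03 in WT and at 9.26, 6.96 and 8.54 in PLZF_ON. Both genes were lowest on PLZF_ON replicate 2 and higher on PLZF_ON replicates 1 and 3 than on WT replicate 1, the lowest WT array for both.

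Eomes, a transcription factor of NK cells, was also lowest on PLZF_ON replicate 2 (4.6, 5.31 and 5.85 in WT, and 6.33, 4.22 and 5.62 in PLZF_ON), as was Gzma, which encodes granzyme A (9.04, 9.24 and 9.57, and 9.25, 6.07 and 9.17). The mean level of the 10 measured NK markers, of 12 listed, ranged from 6.12 to 7.06 in WT and was 6.93, 5.34 and 6.95 in PLZF_ON. On PLZF_ON replicates 1 and 3, 2 and 1 of the 10 markers lay below all WT arrays, against 9 of the 10 receptors and 27.5% and 31.0% of all rows. On PLZF_ON replicate 2 it was 8 markers, 10 receptors and 27.8% of all rows. Cma1, under the background limit on every array, and Itga2 were not among these 8 markers. Itga2 was at 7.286 on PLZF_ON replicate 2 against 6.264, 7.165 and 7.476 in WT (4-array difference 0.67, SE 0.29). Over the 4 arrays 1 marker, Clnk, a signalling protein of the SLP-76 family, was lower at an unadjusted p under 0.05, and 0 passed after adjustment by limma. Of these markers Klri2 is itself a Klr gene, and Tyrobp, Fcer1g and Eomes are also in the adaptor and regulator lists below.

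**Figure D3:**
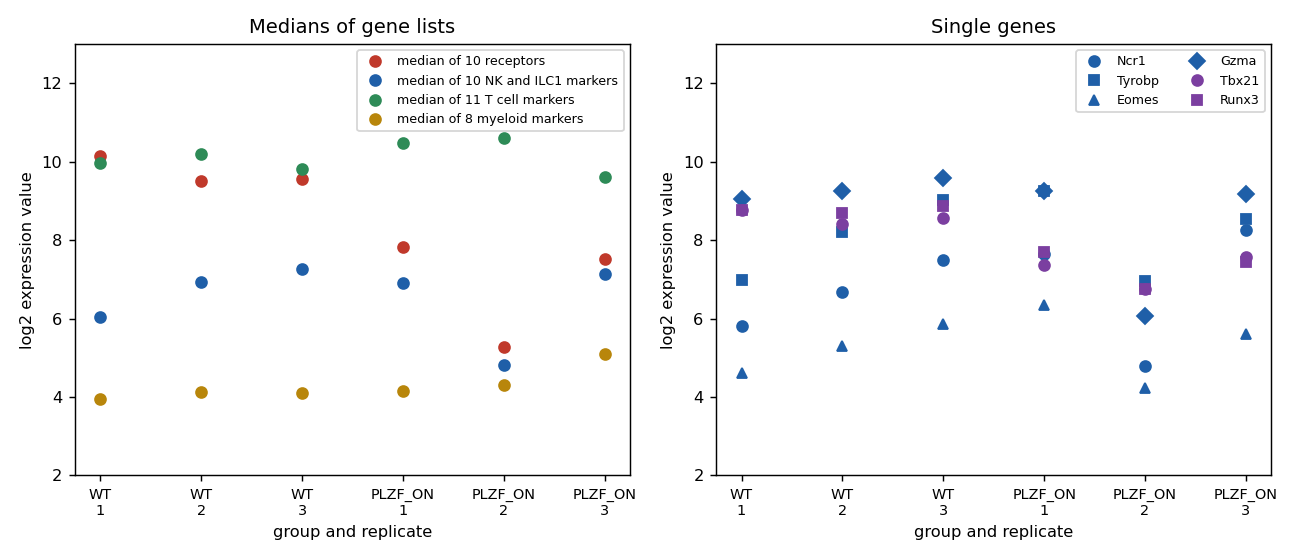
Log2 expression values by array, with medians of 4 gene lists on the left and single genes on the right, where NK markers are blue and the transcription factors Tbx21 and Runx3 purple. The receptor median is between 9.51 and 10.14 in WT and at 7.83, 5.28 and 7.52 in PLZF_ON, while the NK marker median is low on PLZF_ON replicate 2 and between 6.03 and 7.26 on the other arrays.

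The other marker lists were read in the same way, and their part was not tested either. The 11 measured T cell markers, of 15 listed, had a mean of 9.70 to 9.85 in WT and 10.27, 10.21 and 9.63 in PLZF_ON, and all lay above the background limit on every array. Cd4 was higher in PLZF_ON (7.56 to 8.01 against 8.90 to 9.46, limma adjusted p = 0.115 over 4 arrays), as was Slamf6 by the brighter of its 2 rows (limma adjusted p = 0.207). B cell markers (5 measured of 6) had means of 5.12 to 5.22 in WT and 4.83 to 5.05 in PLZF_ON. Over the 4 arrays 2 of the 5 were lower and 3 higher, and 3 lay under the background limit on every array. Ighm, the immunoglobulin heavy chain gene, given by the brightest of its 7 rows, differed most (8.98 to 9.22 in WT and 7.65 to 8.53 in PLZF_ON, limma adjusted p = 0.337). Cd79a, Cd79b, Ms4a1 and Pax5 differed by 0.235, -0.296, 0.039 and 0.0475. Myeloid markers (8 of 8) had means of 4.02 to 4.17 in WT, 4.16 and 4.20 in PLZF_ON replicates 1 and 2 and 5.25 in replicate 3. Among gamma-delta T cell markers 2 of 6 were measured, Sox13 and Cd163l1, with a mean of 6.72 to 7.29 in WT and 7.07 to 7.32 in PLZF_ON. That mean joins opposite 4-array differences, -0.59 for Sox13 (limma adjusted p = 0.283) and 1.15 for Cd163l1 (limma adjusted p = 0.252).

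The other Klr genes on the array were mostly dim. Of the 12 measured among 22 listed, 10 were lower and 2 higher, with a median log2 difference of -0.27, and 0 passed by limma over all rows. At an unadjusted p under 0.05, 3 of the 12 were lower, against the 4.53% of all rows given above. Of the 12, 6 lay under the background limit on every array.

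Klrc3, which encodes NKG2E, was at 3.55, 3.79 and 3.82 in WT and at 2.43, 2.64 and 2.40 in PLZF_ON. Its groups did not overlap and its difference of -1.13 had a small standard error (0.16, limma adjusted p = 0.0762), although all 6 values are under the background limit. Klrb1f, an NKR-P1 receptor for Clr proteins, was at 6.71, 6.85 and 7.19 in WT and at 6.22, 5.34 and 7.17 in PLZF_ON, so that replicate 3 overlapped WT (4-array difference -0.996, SE 0.29, limma adjusted p = 0.329).

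Klrb1b, the inhibitory NKR-P1 receptor for Clr-b, was at 6.73, 6.53 and 7.005 in WT and at 7.19, 5.23 and 6.38 in PLZF_ON, with overlapping groups. Klri2 ranged from 5.10 to 6.21 in WT and from 3.13 to 7.50 in PLZF_ON, and PLZF_ON held both the highest and the lowest array. Klrh1 had a 4-array difference of -0.53 (SE 0.19, limma adjusted p = 0.448) at levels under the limit. The differences of Klra2, Klra14-ps, Klra17, Klrb1, Klrb1-ps1, Klri1 and Klrg2 lay between -0.28 and 0.17. The remaining Klr gene with its own row, Klra11, was not in the list and lay under the limit on all arrays (difference -0.065, SE 0.13).

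On chromosome 6 the Klr genes lie in a cluster with other C-type lectin genes, the NK gene complex. In the gene order of the RefSeq table, Klre1, Klrd1, Klrk1, Klrc3, Klrc2 and Klrc1 follow each other without another measured lectin gene between them, and all 6 were lower in PLZF_ON. Their neighbours Clec7a and Olr1 on one side had 4-array differences of -0.28 and -0.01, and Klri1 on the other -0.26. Each of these neighbours had a WT mean under the background limit (4.06, 3.80 and 4.27), where a fall could not be told from background. Further along, Klra5 and Klra9 flank Klra6 and the pseudogene Klra14-ps. The 23 other lectin genes of the row had a median difference of -0.09, although only 6 of them had a WT mean above the background limit, against 8 of the 10 receptors.

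**Figure D4:**
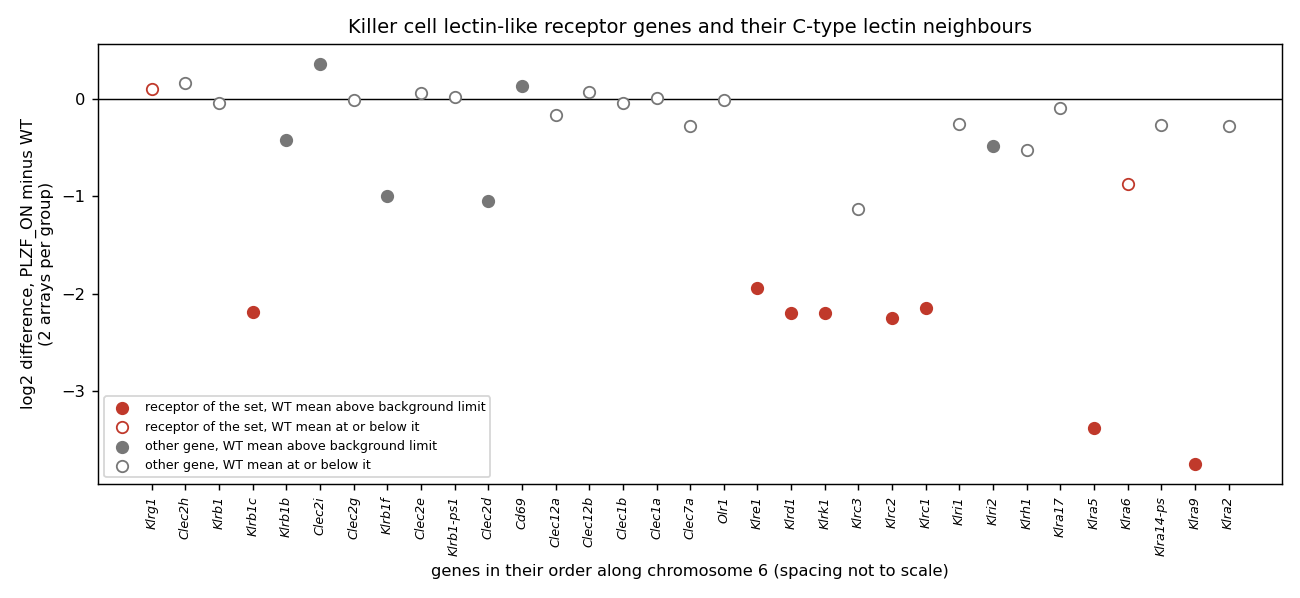
Log2 difference between PLZF_ON and WT over 2 arrays per group for 33 lectin genes in their order along chromosome 6, with equal spacing. Filled points have a WT mean above the background limit; the 8 filled red points are the receptors between -1.95 and -3.75, and the filled grey points lie between -1.05 and 0.36.

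Among the 12 measured C-type lectins of the complex outside the Klr family, of 15 listed, 6 were lower and 6 higher and 0 passed by limma. Clec2d encodes Clr-b, the ligand of Klrb1b. It was at 10.04, 9.65 and 9.01 in WT and at 9.18, 8.42 and 8.76 in PLZF_ON, with overlap through PLZF_ON replicate 1 and WT replicate 3 (4-array difference -1.05, SE 0.28, limma adjusted p = 0.285). Clec2i, or Clr-g, was higher by 0.36 (SE 0.13, limma adjusted p = 0.462). Cd69, an early activation antigen, differed by 0.13 and Clec7a, the beta-glucan receptor Dectin-1, by -0.28.

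The ligands of the receptors were measured in the same cells for 9 of 16 listed genes, and 7 were lower. Cdh1 encodes E-cadherin, a ligand of Klrg1, and is given by the brighter of its 2 rows, the other not being shown. It was the only gene of all lists here to pass over all rows. It fell from 8.43, 8.34 and 8.06 in WT to 6.25, 6.36 and 6.83 in PLZF_ON, 4.22-fold over 4 arrays (SE 0.13 on the log2 scale, limma adjusted p = 0.0132) and also over 6 (limma adjusted p = 0.0425). H60b, a ligand of NKG2D, was at 8.97, 8.81 and 8.80 in WT and at 8.36, 7.99 and 7.23 in PLZF_ON, without overlap (difference -0.71, SE 0.17, limma adjusted p = 0.245).

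The class I genes differed little over the 4 arrays. H2-K1, a classical MHC class I heavy chain, differed by -0.35 (SE 0.15) and H2-T23, the Qa-1 heavy chain read by CD94 and NKG2, by -0.16 (SE 0.14). B2m, the shared light chain, differed by -0.08 (SE 0.13). Another NKG2D ligand, Ulbp1, differed by 0.22 (SE 0.13). None of these 4 passed by limma, with adjusted p from 0.568 to 0.933.

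Of the adaptors and signalling proteins that serve these receptors, 20 of 22 listed were measured, 6 lower and 14 higher, with a median difference of 0.15 and a range of -0.46 to 0.51. By limma 0 passed over all rows, and at an unadjusted p under 0.05 4 were lower and 2 higher, where 4.53% of all rows were lower and 4.88% higher. Hcst encodes DAP10, the adaptor of NKG2D, and was at 11.12, 10.92 and 11.19 in WT and at 10.76, 10.38 and 10.24 in PLZF_ON (difference -0.45, SE 0.18, limma adjusted p = 0.506).

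Ptpn6 encodes SHP-1, the phosphatase recruited by inhibitory receptors, and differed by -0.46 (SE 0.16, limma adjusted p = 0.434). Its 3 PLZF_ON arrays (8.69 to 9.43) lay below its WT arrays (9.58 to 9.83). The kinase genes Zap70 and Syk differed by -0.37 and 0.44 (limma adjusted p = 0.450 and 0.345), Syk being under the background limit on every array, and Plcg1, encoding a phospholipase, by 0.37 (limma adjusted p = 0.461). Fcer1g, an adaptor chain of NKR-P1C, was at 8.77 to 9.21 in WT and 8.72 to 9.26 in PLZF_ON, and thus overlapped.

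Of the genes known to regulate killer receptors, 15 of 17 listed were measured, 8 lower and 7 higher, and 0 passed by limma over all rows. Tbx21, encoding T-bet, was at 8.76, 8.42 and 8.56 in WT and at 7.37, 6.75 and 7.58 in PLZF_ON (difference -1.53, SE 0.24, limma adjusted p = 0.102). Runx3, a RUNX family transcription factor of cytotoxic lymphocytes, was at 8.78, 8.69 and 8.88 in WT and at 7.69, 6.76 and 7.45 in PLZF_ON (difference -1.51, SE 0.30, limma adjusted p = 0.165). For both genes all PLZF_ON arrays were lower than all WT arrays, with replicate 2 the lowest.

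Il2rb, the chain through which interleukin-15 signals, was at 10.998, 10.73 and 10.53 in WT and at 10.01, 9.76 and 8.84 in PLZF_ON (difference -0.98, SE 0.16, limma adjusted p = 0.116). Nfil3, a transcription factor needed for NK cell development, differed by -0.63 (SE 0.13, limma adjusted p = 0.178). Tox, a regulator of T cell development in the thymus, was higher, at 8.71, 9.09 and 9.13 in WT and 9.76, 9.96 and 9.15 in PLZF_ON (difference 0.96, SE 0.18, limma adjusted p = 0.148). PLZF_ON replicate 3 was level with WT replicate 3 for Tox. By unadjusted p under 0.05, 4 regulators were lower and 2 higher over the 4 arrays.

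**Figure D5:**
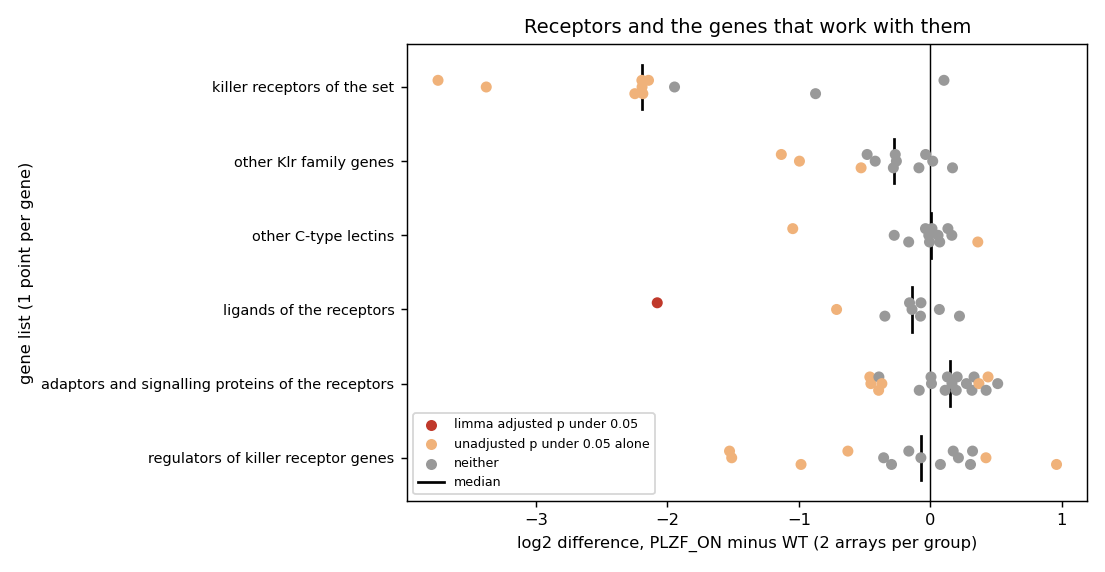
Log2 difference between PLZF_ON and WT over 2 arrays per group, 1 point per gene, for the receptors and 5 lists, with a bar at each median and colour for the limma result. The receptor median is -2.19, the other medians lie between -0.27 and 0.15, and Cdh1 among the ligands is the single gene with an adjusted p under 0.05.

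A RUNX motif (TGTGGTT, or AACCACA on the other strand) was searched in the gene start windows, since Runx3 and Tbx21 are among the listed regulators. RefSeq windows were at hand for 8 of the 10 receptors, 10 windows in all, as Klre1 and Klrc2 have 2 each. The motif was found in 1 window each of Klre1 and Klrk1, starting 229 and 129 bases before the gene start, and in 5.27% of all 32851 windows. The T-box core (GGTGTGA, or TCACACC) was in none of the 10 windows and in 3.98% of all. Such a match is a description of the letters and not a binding site, and other stretches of these genes were not searched. Only these exact letters were searched, so windows without a match may still hold shorter or variant forms of either motif.

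Genes were ranked by how close their pattern over the 6 arrays came to the receptors' median profile. The measure was the root mean square difference of deviations from the WT mean. Klr genes, predicted genes, microRNA, small nucleolar RNA, and olfactory and vomeronasal receptor genes were left out of the ranking. The closest were Samd3 (0.254), St3gal6, a sialyltransferase gene (0.282), Jag1, a Notch ligand gene (0.333), Gzmc, encoding granzyme C (0.340), and Xcl1, encoding the chemokine lymphotactin (0.439). Jag1 lay under the background limit on every PLZF_ON array, and Gzmc lay above it on only 1 of them. The median gene was 1.55 away. Xcl1 was at 10.57, 10.31 and 10.84 in WT and at 9.69, 8.34 and 9.34 in PLZF_ON (4-array difference -1.42, SE 0.41, limma adjusted p = 0.342), with PLZF_ON replicate 2 the lowest. Samd3 was at 8.87, 8.34 and 8.61 in WT and at 7.64, 5.89 and 6.81 in PLZF_ON. The ranking picks genes close to the receptors' profile, so the falls of Xcl1 and Samd3 are no separate result. The receptors themselves set that profile. Of them Klrc2 (0.0814), Klrd1 (0.172) and Klrk1 (0.207) lay nearest to it and Klrg1 (1.53) farthest.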

How the data were processed

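RNA of iNKT cells was read on Affymetrix whole-transcript arrays, per the labels' protocols. The deposited table holds log2 expression values that the authors made with RMA, per the submitters' processing notes. RMA compresses differences of dim genes. For the values' genome build and annotation release: not given in the sources used here. Of 41345 rows, 23521 had 1 gene symbol in the platform annotation and were tested, 1814 had several and were left out, and 16010 were unnamed. A gene with several rows was represented by the row with the highest mean over 6 arrays.

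PLZF_ON was compared with WT using limma 3.58.1 in R 4.3.3 (lmFit, eBayes, two-sided, genotype as the only term), with Benjamini-Hochberg adjustment over all tested rows at 0.05. Scripts were tested on simulated data. The 4-array fit had 2 residual and 4.10 prior degrees of freedom, the 6-array fit 4 and 3.78. No filter on dim rows was applied. The members and gene lists were chosen with earlier results of these data known. The text names the 10 members, all listed Klr genes with a row, up to 4 genes per other list by smallest p, those passing over all rows, and the 5 genes nearest to the members' profile. Other genes in the text (among them Cd69, Clec7a, Olr1, H2-T23, B2m, Fcer1g, Hcst, Zbtb16 and single cell type markers) were chosen after their values were seen. Windows were aligned with Biopython 1.88 (match 1, mismatch -1, gap -2 to open and -0.5 to extend), and figures were drawn with matplotlib 3.10.9. Each fit was repeated with a replicate block, without each array, on brighter rows, on all rows, with a variance trend, after quantile normalization or median centring, with array weights, averaging the rows of a gene, and with a floor.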

Additional observations from a re-analysis of the deposited data

Results flagged for a closer look

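One Klr row outside the comparison ran against the others. The row annotated with both Klrb1a and Klrb1c, which cannot be assigned to either gene, was at 5.87, 5.63 and 5.86 in WT and at 7.74, 7.06 and 5.50 in PLZF_ON replicates 1 to 3. Its log2 difference over the 4 arrays was 1.65, above the level of all WT arrays on PLZF_ON replicates 1 and 2 and below it on replicate 3. The row of Klrb1c alone had a difference of -2.19. The other 3 Klr rows with several symbols had differences of -2.42 (Klra3 and Klra9), -1.35 (Klra10 and Klra3) and -0.18 (a row with 7 symbols). None of these rows was tested.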

How the results depend on the processing

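The count of rows passing over 4 arrays (40) was 0 when all deposited rows were tested together, 3 with values floored at the background limit and 101 with the replicate number as a block, and it ranged from 0 (without PLZF_ON replicate 2) to 106 (without WT replicate 2) when 1 array was left out. Over 6 arrays the count (22) was 5 after median centring, 0 with all deposited rows, 0 with the floor and 259 with array weights, and from 0 (without WT replicate 1 or 2 or PLZF_ON replicate 2) to 107 (without PLZF_ON replicate 3) with 1 array left out. Over 6 arrays the block gave 30. No receptor passed over 4 arrays except with the replicate block, where 2 did (Klra5 and Klrc1, limma adjusted p = 0.0312 and 0.0357), and when 1 array was left out, where the range was 0 to 6. Over 6 arrays 4 passed with array weights, and 0 to 1 with 1 array left out. With the floor, 1 receptor over 4 arrays and 5 over 6 were lower at an unadjusted p under 0.05 (7 and 9 otherwise; 6 to 9 over 4 arrays and 6 to 9 over 6 with 1 array left out), and the count with a difference of -2 or below over 4 arrays (7) ranged from 1 (without PLZF_ON replicate 2) to 8 with 1 array left out. The cause of these shifts was not tested. Shares of all rows at the unadjusted p and at the -2 difference are not given for these settings. Over 6 arrays, deviations of same-numbered arrays correlated at 0.0916, 0.253 and 0.239, and those of different-numbered arrays at between -0.235 and 0.124. Over 4 arrays these correlations were 0.132 and -0.132. Whether arrays of the same number share a batch or a pairing was not tested, and the main fits took no pairing. With 1 array left out, Klrg1 ranged from -0.15 to 0.36 over 4 arrays and from -0.027 to 0.23 over 6, changing sign without PLZF_ON replicate 1. Of 126 receptor values recomputed over 4 arrays, 117 kept their direction and side of the threshold, 8 passed newly and 1 changed sign; over 6 arrays these were 140, 6 and 1 of 147. Since no receptor passed in the main fits, none could be counted as lost. A smaller difference of the same sign counted as kept, so this tally does not measure how stable the sizes were. The median receptor difference lay between -3.14 and -1.30 over 4 arrays and between -2.44 and -1.53 over 6. With the floor, Klrg1 had no value, nor did Klra6 over 4 arrays. Values near the background limit understate a difference.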
